A study of Mus musculus with 16 samples.

Results

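The 9 genes described here encode scaffold proteins of the excitatory postsynaptic density: Dlg1, Dlg2, Dlg3 and Dlg4, Shank1, Shank2 and Shank3, Homer1 and Dlgap1. They were chosen by name, with earlier results of these data known, and every transcript of them in the count matrices was taken, which gave 9 of 55266 genes and 122 of 142435 transcripts. RNA was sequenced from frontal cortex (FC) and cerebellum (Cere) of adult Upf3b-KO mice, which carry a null allele of the X-linked gene Upf3b, and of littermate controls (Ctrl), with 4 libraries per tissue and genotype; age in weeks, sex and strain are not given in the sources used here. Ribosomal RNA was depleted from total RNA, and libraries were made with SMART-Seq v4 PLUS. The question is whether loss of Upf3b, which acts in nonsense-mediated RNA decay (NMD), changes these scaffold genes or the balance between their transcripts, and whether it does so alike in both tissues. By the study's account both tissues came from 4 mice of each genotype, so FC and Cere libraries share animals, but the labels do not say which libraries came from the same mouse. Fits that set the tissues against each other therefore took the libraries as independent samples. The labels also do not say that each library of a group is a separate mouse, and the libraries of a group were close (biological coefficient of variation 3.99% in FC and 3.87% in Cere), so p-values measure the spread between these libraries, which may be technical. Each library holds RNA of many cell types.

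NMD degrades mRNAs on which a ribosome stops too early, most clearly when an exon-exon junction lies well downstream of the stop codon. UPF3B links the decay machinery to the protein complex deposited at such junctions. In neurons the pathway is joined to alternative splicing: an exon that shifts the reading frame can send part of a gene's transcripts to decay. The best known example among these genes is Dlg4, where skipping of exon 18 yields a decay substrate in cells that hold polypyrimidine tract-binding proteins. At the synapse, Dlg proteins (the membrane-associated guanylate kinase family) hold glutamate receptors, Dlgap1 joins Dlg to Shank proteins, and Homer1 joins Shank to metabotropic glutamate receptors. A short Homer1 form, Homer1a, is induced by neuronal activity and lacks the domain through which long Homer proteins pair.

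The 15 libraries used held 27660078 to 35238677 counts, so that 3 counts, taken as the lowest measurable level, stood for 0.0851 to 0.108 CPM, the usual scaling of counts to the library total. Replicate 1 of the Upf3b-KO cerebellum held 64981 counts, of which 74 fell on the 9 genes, and it was left out. The 9 genes took 0.105 to 0.221% of the counts of a library. Upf3b itself was at 14.2 to 23.6 CPM in Ctrl libraries and at most 0.965 CPM in the Upf3b-KO libraries used. Marker lists of other cells moved with genotype. In FC the summed CPM of 8 striatal neuron markers was 162 to 174 in Ctrl and 782 to 795 in Upf3b-KO, and that of 6 choroid plexus markers 243 to 245 and 5050 to 5110. In Cere the 6 choroid plexus markers were at 202 to 203 in Ctrl and 3360 to 3380 in Upf3b-KO, and 6 brainstem neuron markers at 44.8 to 47.5 and 389 to 394. Enpp2 made up most of the choroid plexus sums in Ctrl (226 CPM in FC and 179 in Cere). Ttr alone went from 7.94 to 1850 CPM in FC and from 2.05 to 1210 CPM in Cere. The summed level of 5 markers of cerebellar granule cells was 3510 to 3540 in Ctrl and 1830 to 1840 in Upf3b-KO, and that of 5 Purkinje cell markers 10800 to 10900 and 4530 to 4540. The 5 oligodendrocyte markers rose in both tissues (7120 to 7180 and 9690 to 9760 in FC, 5720 to 5810 and 13700 to 13800 in Cere). In these pairs of list and tissue every marker passed in the direction of its sum, and none was at 0 in all libraries of a genotype. Other pairs were mixed or went the other way. The striatal sum was 369 to 380 in Cere Ctrl and 336 to 346 in Cere Upf3b-KO, although 5 of its 8 markers rose there, 3 by more than 2-fold, and 1 fell. Penk (128 CPM in Cere Ctrl and 182 in Cere Upf3b-KO) and Ppp1r1b (243 and 127) made up most of that sum. The brainstem sum was 207 to 216 in FC Ctrl and 142 to 154 in FC Upf3b-KO, with 2 of 3 markers tested lower. In FC this sum was mostly Sst (182 CPM ± 3.7 in Ctrl and 122 ± 4.5 in Upf3b-KO). Slc6a5, Hoxb3 and Hoxa5 were at or near 0 there, so the FC sum is largely a measure of Sst. In FC 4 of 5 cortical excitatory neuron markers fell and none rose (summed CPM 1510 to 1570 in Ctrl and 1400 to 1410 in Upf3b-KO), and all 5 astrocyte markers fell (2840 to 2880 and 2260 to 2280). In Cere 4 of the astrocyte markers fell and 1 rose (4170 to 4220 and 2730 to 2750). General neuron markers were mixed, with 2 of 5 higher and 3 lower in FC and 3 higher and 2 lower in Cere. Their part in the results below was not tested. Striatal and choroid plexus markers, and in Cere the brainstem markers, come from regions next to the labelled ones. A difference between genotypes in the piece of tissue taken cannot be told apart from an effect of Upf3b loss on the genes below. In whole tissue fewer cells of a type and less RNA per cell cannot be told apart.

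Among the 122 transcripts, 75 were annotated as protein coding, 24 as retained intron, 19 as transcripts of a coding gene without a defined coding sequence, and 4 as NMD transcripts. All 9 genes lie on the plus strand, and coordinates are of GRCm39. The 4 NMD transcripts belonged to 3 of the 9 genes: Dlg1-209 and Dlg1-207, Dlg4-205 and Shank3-208. All 4 had a junction more than 50 nucleotides (nt) downstream of the stop codon. The annotation used here lists 24 NMD transcripts of these genes (15 of Dlg1, 3 each of Dlg3 and Homer1, 2 of Dlg4 and 1 of Shank3), and those other than the 4 were not analysed here. An NMD class share thus covers 2 of 15 such transcripts of Dlg1 and 1 of 2 of Dlg4, and only Dlg1, Dlg4 and Shank3 could be followed by a transcript of that type. In Dlg1-209 (chromosome 16, GRCm39, plus strand) exon 16 of 25 begins at 31656863, which is 5 bases upstream of the start used by the reference transcript Dlg1-202, at 31656868. The exon is then 182 bases long in place of 177, the frame shifts, and the stop codon at 31656921 to 31656923 lies 795 nt before the last junction. The pair below shows the splice junction from 31655122 into that exon, with the 5 added bases in capitals, followed by the end of the early reading frame with its stop codon in capitals.
Dlg1-202 junction: ctccctctatgtcagagccctctttgatta
Dlg1-209 junction: ctccctctatgtcagTCTAGagccctcttt
Dlg1-209 last coding bases: aggacagcgggcttcccagtcaaggacTGA
Dlg1-207, a fragment of 678 bases, ends its reading frame at the same stop codon. Dlg1-209 also differs from Dlg1-202 elsewhere. It lacks exon 6 (99 bases) and exon 19 (100 bases) of Dlg1-202 and holds a 34-base exon that Dlg1-202 lacks. Its exon 11 has 100 bases in place of 145, and its last exon 1675 in place of 3455.

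Dlg4-205 (chromosome 11, plus strand) lacks exon 18 of the reference transcript Dlg4-215, a coding exon of 110 bases at 69934484 to 69934593 whose length is no multiple of 3. Its stop codon at 69935111 to 69935113 lies 80 nt before the last junction. The lines below show the junction into the next exon with exon 18 present, with the bases of exon 18 in capitals, the junction without it, and the early end of the reading frame with the stop codon in capitals.
Dlg4-215 exon 18 to 19: CCTGGAGAATGTGCTagagatcaataagcg
Dlg4-205 exon 17 to 19: gaggtagcagagcagagagatcaataagcg
Dlg4-205 last coding bases: cgagaggtagcagagcagagagatcaaTAA
Shank3-208 carries an internal exon of 109 bases where the reference transcript has 81, and its stop codon lies 2460 nt before the last junction.

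By its estimated counts the NMD transcript Dlg1-209 was abundant, and its difference between genotypes passed in neither tissue. Dlg1-209 was at 48.3, 42.9, 48.8 and 40.4 CPM in the 4 FC Ctrl libraries and at 45.3, 42.2, 48.2 and 40.9 CPM in FC Upf3b-KO. In Cere it was at 42.2, 56.6, 46.8 and 39.2 CPM in Ctrl and at 36.2, 40.7 and 23.3 CPM in the 3 Upf3b-KO libraries. The groups overlapped in both tissues, and its level differed by -0.10 on the log2 scale in FC (SE 0.077, adjusted p = 0.517) and by -0.47 in Cere (SE 0.21, adjusted p = 0.169). When 1 library was left out the Cere value ran from -0.64 to -0.27 and never passed (adjusted p up to 0.334). As a share of all Dlg1 counts, the NMD class (Dlg1-209 and Dlg1-207) held 28.5% ± 2.5 (SD, n = 4) in FC Ctrl, 26.5% ± 1.9 (n = 4) in FC Upf3b-KO, 28% ± 4.5 (n = 4) in Cere Ctrl and 25.3% ± 7.6 (n = 3) in Cere Upf3b-KO. In edgeR's test of transcript usage on the class, the share of Dlg1 differed by -0.10 on the log2 scale in FC (SE 0.066, adjusted p = 0.433) and by -0.16 in Cere (SE 0.19, adjusted p = 0.722). Neither passed an adjusted p of 0.05, the threshold used throughout. Of all genes with both classes measured, 8.77% of 1996 passed in FC and 7.17% of 2161 in Cere, and the median log2 difference was 0.17 and 0.18. Dlg1-207 was low, at 0.129, 0.0894, 0.0864 and 0.382 CPM in FC Ctrl and 0.157, 0.155, 0.46 and 0.451 CPM in FC Upf3b-KO. In Cere it was at 0.46 CPM ± 0.25 (n = 4) in Ctrl and 0.411 ± 0.15 (n = 3) in Upf3b-KO, and the groups overlapped in both tissues. The read counts of transcripts that share exons are estimates, which can add to the spread of these shares. These estimates cover whole transcripts, so the level and share of Dlg1-209 do not measure its shifted splice junction alone. Of 55 annotated Dlg1 transcripts, 15 were in the matrices.

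Dlg4-205, the transcript without exon 18, was at most 1.36 CPM in the libraries used. It was listed at 0 in FC Ctrl replicates 1 to 3 and at 0.16 CPM in replicate 4. In FC Upf3b-KO it was at 0.807, 0.33, 0.858 and 0.156 CPM, so 3 of 4 Upf3b-KO libraries exceeded the highest Ctrl value. The low-count filter removed it from the FC test. With a minimum count of 3 in place of 10, the share of the Dlg4 NMD class was higher in Upf3b-KO by 3.84 on the log2 scale (SE 0.93, adjusted p = 0.0197), a value that depends on the small count added to libraries at 0. Of the 5 fits that left out 1 library and in which Dlg4-205 passed the filter, those without Ctrl replicate 1, 2 or 3 gave log2 differences of 3.44 to 3.47 with adjusted p of 0.0502 to 0.0534. The fit without Upf3b-KO replicate 4 gave 4.15 (adjusted p = 0.0159), and that without Ctrl replicate 4, which left the transcript at 0 in every Ctrl library, gave 7.32 (adjusted p = 0.00555). In Cere the transcript was at 0.346, 1.36, 0.885 and 0 CPM in Ctrl and at 0.268, 1.15 and 0.376 CPM in Upf3b-KO, and its share of Dlg4 counts (0.924% ± 0.85 and 0.843% ± 0.7) did not pass (log2 difference -0.15, SE 0.84, adjusted p = 0.955). Between the tissues of Ctrl mice the share passed (0.0388% ± 0.078 in FC against 0.924% ± 0.85 in Cere, n = 4 each; adjusted p = 0.00404, where 10.5% of 2580 genes passed). That call was lost when only the Ctrl libraries were fitted, with a replicate block, and with a minimum count of 30. Shank3-208 was listed at 0 in 14 of the 15 libraries and at 0.635 CPM in FC Ctrl replicate 3.

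**Figure D1:**
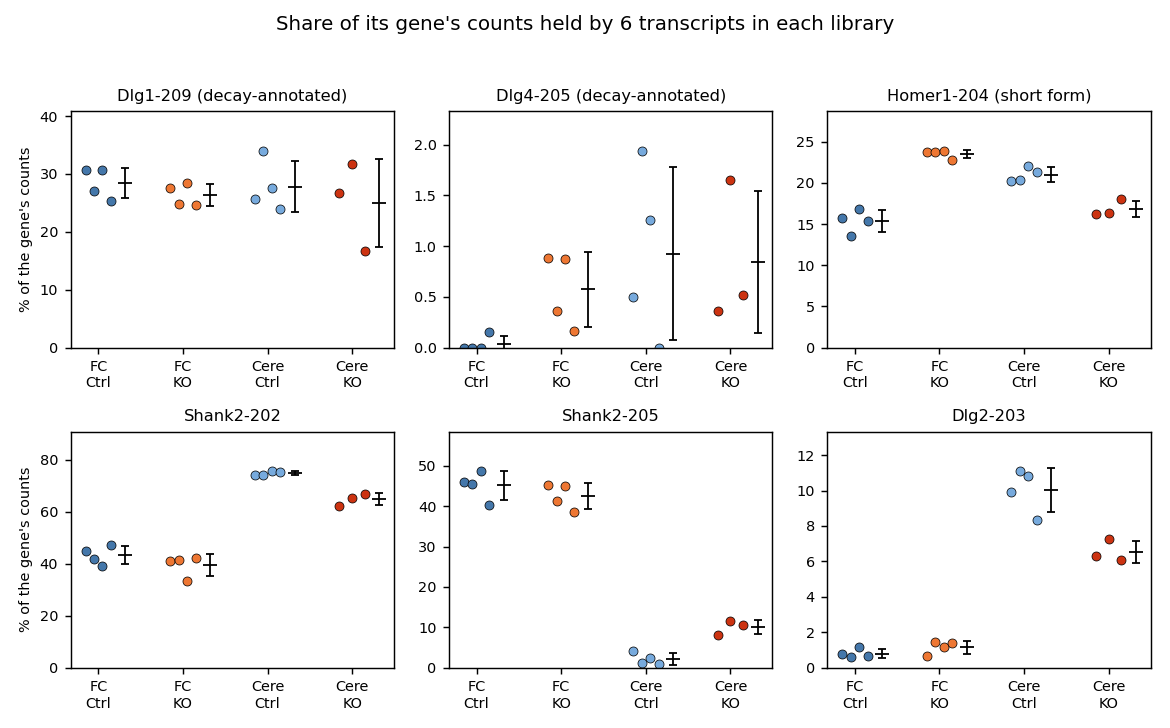
Share of the gene's counts (%, vertical axis from 0) held by 6 transcripts in each library of the 4 groups. Points are libraries, and bars beside them give the mean and SD. Dlg1-209 overlaps in all groups, Homer1-204 is higher in all 4 FC Upf3b-KO libraries, and Shank2-205 and Dlg2-203 separate the tissues.

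At gene level, Homer1 was higher and Dlg4, Dlg2, Shank2 and Dlgap1 were lower in Upf3b-KO than in Ctrl FC, by at most 0.35 on the log2 scale. In Cere 8 of the 9 genes were lower in Upf3b-KO, and Shank2 and Shank3 fell by more than 2-fold. Tests were edgeR quasi-likelihood tests across all genes with Benjamini-Hochberg adjustment and TMM scaling, which takes most genes as unchanged. In FC 5 of 9 members passed, 1 higher and 4 lower, where 53.3% of 18218 genes passed. On library totals without TMM 8 passed, 4 higher and 4 lower. In Cere 8 of 9 passed, all lower, where 64.4% of 17785 genes passed in either direction and 31.3% were lower. The stricter rule of an adjusted p under 0.01 and a change over 2-fold was met by Shank2 and Shank3 in Cere (13.2% of all genes) and, since no difference reached 2-fold, by no member in FC (10.2%). The median log2 difference of the 9 genes was -0.05 in FC (0 over all genes) and -0.36 in Cere (0.01 over all genes). CPM values below are relative to the library total, and on that scale all differences between Upf3b-KO and Ctrl lie 0.076 higher in FC and 0.05 higher in Cere than after TMM scaling.

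**Figure D2:**
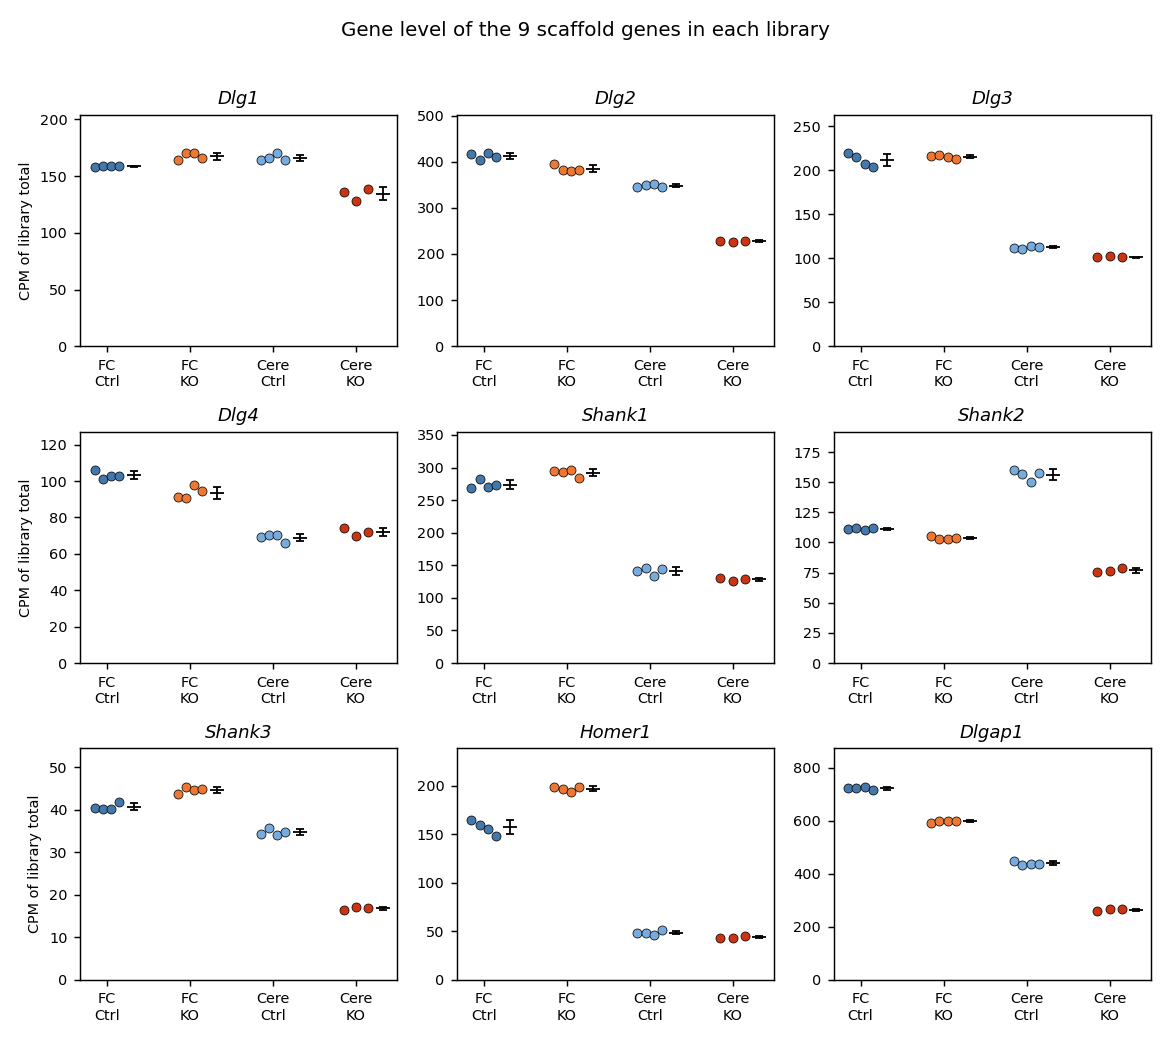
CPM of the library total (vertical axis from 0) of the 9 genes in each library, by tissue and genotype. Points are libraries (4 per group, 3 in Cere Upf3b-KO), and bars beside them give the mean and SD. Shank2 and Shank3 in Cere Upf3b-KO lie far below Cere Ctrl, while Dlg4 overlaps there.

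Dlg4 (ENSMUSG00000020886, chr11:69907768-69938348) encodes PSD-95, the main scaffold of glutamate receptors at excitatory synapses. It was at 106, 101, 103 and 103 CPM in FC Ctrl and at 91.1, 90.8, 98 and 94.4 CPM in FC Upf3b-KO. The groups did not overlap, and Dlg4 fell by 0.22 on the log2 scale (SE 0.028, adjusted p = 8.24e-07). Cere Ctrl stood at 69.3, 70.3, 70.3 and 66 CPM and Cere Upf3b-KO at 74.2, 69.9 and 72.2 CPM. The groups overlapped, and the log2 difference was 0.01 (SE 0.033, adjusted p = 0.765). Its main transcript Dlg4-203 was at 91.6 CPM ± 1.7 in FC Ctrl and 81 ± 2.4 in FC Upf3b-KO (n = 4 each; log2 difference -0.24, adjusted p = 0.00056), and at 41.9 ± 4.5 (n = 4) and 38.5 ± 6.4 (n = 3) in Cere, where it did not pass.

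Dlg2 (ENSMUSG00000052572, chr7:90125880-92098455), which encodes PSD-93, was at 417, 403, 418 and 411 CPM in FC Ctrl and at 396, 382, 379 and 381 CPM in FC Upf3b-KO. All Upf3b-KO libraries were lower, and Dlg2 fell by 0.18 on the log2 scale (SE 0.017, adjusted p = 1.59e-08). Cere Ctrl libraries were at 345, 350, 352 and 346 CPM and Cere Upf3b-KO libraries at 229, 225 and 228 CPM, and Dlg2 fell by 0.67 on the log2 scale (SE 0.018, adjusted p = 1.27e-16). Its main transcript Dlg2-204, which starts far upstream of the others named here, held 83.1% ± 2 of the counts in FC Ctrl and 67.6% ± 1.5 in Cere Ctrl (n = 4 each). It fell in both tissues (342 CPM ± 3 to 313 ± 13 in FC, log2 difference -0.19, adjusted p = 0.00244; 235 ± 4.9 to 150 ± 10 in Cere, log2 difference -0.66, adjusted p = 5.89e-05). Dlg2-203, a form with a later start and 20 exons in place of 23, was mostly cerebellar: 3.3 CPM ± 1.2 in FC Ctrl and 35 ± 4.6 in Cere Ctrl. In Cere it fell to 14.9 CPM ± 1.3 (log2 difference -1.24, SE 0.12, adjusted p = 0.000376). Dlg2-208, a transcript without a defined coding sequence, fell in Cere as well (26.8 CPM ± 1.4 to 16.9 ± 2.7, adjusted p = 0.005).

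Dlg3 (ENSMUSG00000000881, chrX:99810768-99862016) encodes SAP102, and Dlg1 (ENSMUSG00000022770, chr16:31482261-31693947) encodes SAP97, family members that also act in receptor delivery. Dlg3 was at 219, 215, 207 and 204 CPM in FC Ctrl and at 216, 217, 215 and 213 CPM in FC Upf3b-KO. The groups overlapped, and the log2 difference of -0.05 (SE 0.021, adjusted p = 0.0554) turned to 0.03 on library totals. In Cere Dlg3 was at 112, 111, 114 and 113 CPM in Ctrl and at 101, 102 and 101 CPM in Upf3b-KO, and it fell by 0.21 on the log2 scale (SE 0.025, adjusted p = 5.72e-07). Of its transcripts Dlg3-202 fell there (41.1 CPM ± 3.6 to 30.1 ± 1.7, adjusted p = 0.00668), while Dlg3-201 was at 46.4 ± 3.7 and 42.4 ± 0.72 and did not pass.

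Dlg1 was at 158, 159, 159 and 159 CPM in FC Ctrl and at 164, 170, 170 and 166 CPM in FC Upf3b-KO. On library totals these groups did not overlap (log2 difference 0.08, adjusted p = 0.00211), whereas after TMM scaling they ran from 166 to 167 and from 162 to 168 and differed by 0.00 (SE 0.02, adjusted p = 0.968). In Cere Dlg1 was at 164, 166, 170 and 164 CPM in Ctrl and at 136, 128 and 139 CPM in Upf3b-KO, and it fell by 0.36 on the log2 scale (SE 0.027, adjusted p = 1.16e-09). Among its transcripts Dlg1-204 passed there (16.3 CPM ± 2.2 to 11.4 ± 0.92, log2 difference -0.53, adjusted p = 0.0227), but not without Ctrl replicate 4, Upf3b-KO replicate 2 or Upf3b-KO replicate 4 (adjusted p up to 0.0837). The leading coding transcript Dlg1-203 was at 42.2 CPM ± 5.5 and 30 ± 10 and did not pass (adjusted p = 0.17).

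Dlgap1 (ENSMUSG00000003279, chr17:70275873-71128409) encodes the linker between Dlg and Shank proteins and was the most abundant member. It was at 724, 725, 728 and 715 CPM in FC Ctrl and at 592, 599, 600 and 600 CPM in FC Upf3b-KO. The groups were far apart for their spread, and Dlgap1 fell by 0.35 on the log2 scale (SE 0.012, adjusted p = 7.34e-16). Cere Ctrl libraries held it at 450, 433, 438 and 436 CPM and Cere Upf3b-KO libraries at 261, 267 and 267 CPM, and it fell by 0.78 (SE 0.018, adjusted p = 1.4e-17). Of its 15 transcripts tested, 4 were lower in FC, where 7.68% of all transcripts were, and 10 were lower in Cere, where 10.3% were, and none passed as higher. The main form Dlgap1-211 went from 304 CPM ± 5 to 239 ± 6.6 in FC (adjusted p = 1.19e-05) and from 159 ± 9.9 to 95.5 ± 1.6 in Cere (adjusted p = 5.72e-05), at an even share of 42.1% and 40% in FC and 36.3% and 36.1% in Cere. Dlgap1-210 and Dlgap1-214 fell in both tissues. Dlgap1-201 did so in Cere (68.1 CPM ± 4.9 to 45.6 ± 2.9, adjusted p = 0.000939) and was at 46.3 ± 4.4 and 45.5 ± 2.3 in FC. The retained-intron transcript Dlgap1-220 fell in both (61 CPM ± 4.7 to 52.5 ± 4.7 in FC, adjusted p = 0.0432; 37.7 ± 3.7 to 21 ± 0.98 in Cere, adjusted p = 0.000452), where the FC call held in only 2 of the 8 fits without 1 library, those without Ctrl replicate 4 or Upf3b-KO replicate 4. All retained-intron transcripts of Dlgap1 together held 9.48% ± 0.69 and 9.59% ± 0.67 of its counts in FC and 12.7% ± 0.86 and 11.1% ± 0.25 in Cere. An antisense gene, Gm41609, shares 7.31% of the exonic bases of Dlgap1, and whether counting used strand is not given in the sources used here.

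The Shank proteins form the layer below Dlg and Dlgap. Shank1 (ENSMUSG00000038738, chr7:43959615-44009996) was at 268, 283, 270 and 274 CPM in FC Ctrl and at 294, 293, 296 and 284 CPM in FC Upf3b-KO, all higher on library totals (log2 difference 0.09, adjusted p = 0.000322) but not after TMM scaling (0.02, SE 0.019, adjusted p = 0.506). In Cere it was at 142, 146, 133 and 145 CPM in Ctrl and at 131, 126 and 129 CPM in Upf3b-KO, and it fell by 0.19 on the log2 scale (SE 0.03, adjusted p = 1.77e-05). A single transcript, Shank1-203, held 98.7% of its counts in Ctrl of each tissue.

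Shank2 (ENSMUSG00000037541, chr7:143555665-143979779) was at 111, 112, 110 and 112 CPM in FC Ctrl and at 105, 103, 103 and 104 CPM in FC Upf3b-KO, and it fell by 0.17 on the log2 scale (SE 0.022, adjusted p = 1.34e-06). In Cere it was at 160, 157, 150 and 158 CPM in Ctrl and at 75.3, 76.1 and 78.9 CPM in Upf3b-KO. It fell by 1.08 (SE 0.028, adjusted p = 1.04e-16), to 0.474 of the Ctrl level. Its transcripts differ in their first exons. Shank2-202, which encodes the longer of the complete forms named here, was at 48.2 CPM ± 4.3 in FC Ctrl and 117 ± 2.5 in Cere Ctrl. In Cere Upf3b-KO it fell to 49.9 ± 3 (log2 difference -1.23, SE 0.044, adjusted p = 2.67e-06). Shank2-205, with a later start, was cortical: it was at 50.9, 50.7, 53.4 and 45.2 CPM in FC Ctrl and at 6.68, 1.85, 3.68 and 1.64 CPM in Cere Ctrl. In FC Upf3b-KO it was at 47.5, 42.6, 46.5 and 40 CPM (log2 difference -0.25, adjusted p = 0.0493), a call that held only without Ctrl replicate 4 or Upf3b-KO replicate 1 (adjusted p up to 0.122). In Cere Upf3b-KO it was at 6.17, 8.79 and 8.29 CPM, and its share of Shank2 rose from 2.21% ± 1.5 to 10.1% ± 1.7 (usage log2 difference 2.19, SE 0.51, adjusted p = 0.0219). That call was lost in 6 of the 7 fits that left out 1 library, all but the fit without Ctrl replicate 1 (adjusted p up to 0.252), and the transcript's own level did not pass (adjusted p = 0.157). Shank2-206, annotated only as an incomplete fragment from the upstream start, was at 27 CPM ± 1.8 in Cere Ctrl and fell to 11.4 ± 1.3 in Cere Upf3b-KO (log2 difference -1.25, adjusted p = 0.000131). In FC it was listed at 0 in 3 of 4 Ctrl libraries and at 0.152 CPM in the other, and at 0.347, 1.72, 2.39 and 0.89 CPM in Upf3b-KO, where both its level (adjusted p = 0.0276) and its usage (adjusted p = 0.000103) passed. The level call held only without Ctrl replicate 3 or Upf3b-KO replicate 1 (adjusted p up to 0.0766), and the usage call held in all 8 such fits.

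Shank3 (ENSMUSG00000022623, chr15:89383826-89444464), whose loss is a known cause of autism in humans, was at 40.5, 40.3, 40.2 and 41.9 CPM in FC Ctrl and at 43.8, 45.4, 44.7 and 44.9 CPM in FC Upf3b-KO. It was higher on library totals (log2 difference 0.14, adjusted p = 0.00232) but did not pass after TMM scaling (0.06, SE 0.035, adjusted p = 0.164). In Cere it was at 34.3, 35.7, 34.2 and 34.8 CPM in Ctrl and at 16.5, 17.1 and 16.8 CPM in Upf3b-KO, and it fell by 1.10 on the log2 scale (SE 0.049, adjusted p = 2.86e-13), to 0.467 of the Ctrl level. The full-length transcript Shank3-203 went from 28 CPM ± 1.2 to 33.6 ± 1.8 in FC (log2 difference 0.20, adjusted p = 0.0368, held only without Ctrl replicate 2 or Upf3b-KO replicate 1) and from 15 ± 1.7 to 5.84 ± 0.8 in Cere (-1.36, adjusted p = 0.000557). Shank3-210, a short form from the 3′ end, was at 9.05 ± 0.44 and 9.49 ± 0.44 CPM in FC, where it did not pass, and fell from 10.3 ± 1.2 to 5.51 ± 0.81 in Cere (adjusted p = 0.0055).

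Homer1 (ENSMUSG00000007617, chr13:93436143-93541637) was the member that rose in FC after TMM scaling, and of its transcripts that passed, the short form rose most. The gene was at 165, 160, 156 and 148 CPM in FC Ctrl and at 199, 197, 194 and 199 CPM in FC Upf3b-KO, and it rose by 0.25 on the log2 scale (SE 0.026, adjusted p = 3.41e-08). In Cere it was at 48.5, 48.3, 46.7 and 50.9 CPM in Ctrl and at 43.4, 43.3 and 45.1 CPM in Upf3b-KO, and it fell by 0.20 (SE 0.039, adjusted p = 0.000218). Homer1-204 has 5 exons and a coding sequence of 558 bases (chromosome 13, 93440171 to 93496970, plus strand), as the short Homer1a form does. It shares exons 1 to 4 with the long Homer1-203, which has 10 exons and 1098 coding bases, and reads through the end of exon 5 into its own stop codon. The lines below show the last coding bases of the short and of the long form, with the stop codons in capitals.
Homer1-204 end, 93492619 to 93492621: acattcaattcagcaatcatgattaagTAA
Homer1-203 end, 93538735 to 93538737: aatttggccaagctactggaatgcagcTAA

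Homer1-204 was at 26.2, 21.5, 26.2 and 22.8 CPM in FC Ctrl and at 47, 46.9, 46.3 and 45.3 CPM in FC Upf3b-KO. Every Upf3b-KO library lay well above every Ctrl library, and it rose by 0.88 on the log2 scale (SE 0.07, adjusted p = 9.19e-05). Its share of Homer1 counts was 15.4% ± 1.4 in Ctrl and 23.5% ± 0.53 in Upf3b-KO, which passed the test of usage (log2 difference 0.61, SE 0.1, adjusted p = 0.0348). The rise in level held in all 8 fits that left out 1 library, whereas the usage call held only without Ctrl replicate 3, with adjusted p up to 0.143 in the others. In Cere Homer1-204 was at 9.8, 9.84, 10.3 and 10.8 CPM in Ctrl and at 7.04, 7.06 and 8.1 CPM in Upf3b-KO, and it fell by 0.46 (SE 0.11, adjusted p = 0.0199), a call lost without Upf3b-KO replicate 2 or 3 (adjusted p up to 0.076). Of the long forms in FC, Homer1-202 went from 54.3 CPM ± 3.8 to 64.4 ± 1.9 (adjusted p = 0.0487), Homer1-203 from 56.1 ± 4.9 to 67.7 ± 3.5 (adjusted p = 0.0708), and Homer1-201 fell from 13.2 ± 1.5 to 8.56 ± 2 (adjusted p = 0.0347). The call of Homer1-202 held only without Ctrl replicate 1, and that of Homer1-201 only without Ctrl replicate 2, Upf3b-KO replicate 1 or Upf3b-KO replicate 2.

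**Figure D3:**
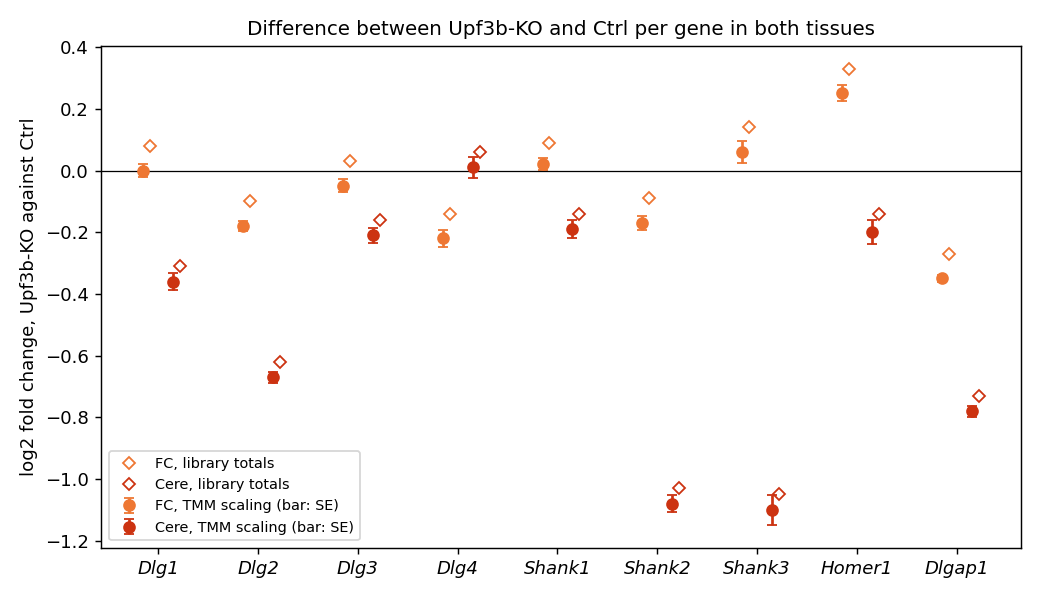
log2 fold change of Upf3b-KO against Ctrl for the 9 genes in FC and in Cere. Filled points are TMM-scaled estimates with SE bars, and open diamonds are the same differences on library totals. In Cere the points of Shank2, Shank3, Dlgap1 and Dlg2 lie lowest, at -1.08, -1.10, -0.78 and -0.67, while in FC Homer1 is the highest at 0.25.

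The effect of genotype differed between the tissues for each of the 9 genes in a joint fit of the 15 libraries without animal as a term (tissue by genotype interaction), where 48% of 19831 genes passed, 23.8% lower and 24.2% higher. The Cere effect was the lower in 8 of them, most for Shank3 (interaction -1.17 on the log2 scale, SE 0.054, adjusted p = 9e-16) and Shank2 (-0.92, SE 0.034, adjusted p = 8.94e-18). For Homer1 the effects had opposite signs (interaction -0.46, SE 0.046, adjusted p = 5.39e-09). For Dlg4 alone the Cere effect was the higher (0.22, SE 0.044, adjusted p = 0.000181). Of the 82 transcripts tested, 15 passed, all with the lower effect in Cere, where 13.3% of 53206 transcripts passed and 5.11% were lower. The smallest adjusted p-values belonged to Homer1-204 (-1.34, SE 0.11, adjusted p = 8.25e-07), Shank3-203 (-1.56, SE 0.14, adjusted p = 1.88e-06) and Dlg2-204 (-0.46, SE 0.054, adjusted p = 3.77e-05).

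Counted per transcript, 12 of 64 member transcripts tested in FC passed, 4 higher and 8 lower, where 16.4% of 42318 transcripts passed, 8.67% higher and 7.68% lower. On library totals the split was 6 higher and 5 lower. In Cere 23 of 71 passed, all lower, where 22.6% of 44388 passed in either direction and 10.3% were lower. The stricter rule was met by 7 in Cere (4.76% of all transcripts) and by none in FC (3.22%), where Shank2-206 was the only passing transcript past 2-fold (adjusted p = 0.0276), and in the usage test by Shank2-206 in FC (0.499%) and by neither passing transcript in Cere (0.644%). In each tissue 107 of the 122 transcripts had any count. The usage test, which asks whether a transcript changed relative to the rest of its gene, passed for 2 of 64 in FC (Homer1-204 and Shank2-206, both higher), where 0.86% of 34066 passed and 0.616% were higher. In Cere it passed for 2 of 71 (Shank2-205 and Dlg2-219, both higher), where 1.25% of 36782 passed and 0.658% were higher. Dlg2-219 was uneven, at 4.98, 15.4, 19.2 and 10.4 CPM in Cere Ctrl and 2.29, 23.5 and 26 CPM in Upf3b-KO, and its usage call (adjusted p = 0.0486) held only without Ctrl replicate 3 or Upf3b-KO replicate 2.

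Between the tissues of Ctrl mice, 8 of 9 genes differed, where 73.1% of 19831 genes did, 35.8% higher and 37.3% lower in Cere. Lower in Cere were Homer1 by -1.72 on the log2 scale (SE 0.031, adjusted p = 1.43e-25), Shank1 by -0.98, Dlg3 by -0.93, Dlgap1 by -0.75, Dlg4 by -0.61, Dlg2 by -0.27 and Shank3 by -0.26. Shank2 was higher in Cere (0.47, SE 0.022, adjusted p = 2.96e-16). Dlg1 was at 159 CPM ± 0.49 in FC and 166 ± 2.8 in Cere (log2 difference 0.04, SE 0.023, adjusted p = 0.14), and passed on library totals alone (0.07, adjusted p = 0.0105). Per kilobase of transcript, Dlgap1 was highest in FC Ctrl at 158 CPM per kb ± 3, followed by Dlg2 at 61.4 ± 1.3 and Dlg3 at 42 ± 1.7. Homer1 (32.2 ± 1.5) and Shank1 (29.9 ± 0.47) overlapped between libraries. Dlg1 (28.2), Dlg4 (20), Shank2 (11.7) and Shank3 (9.88) followed, each apart from the next. In Cere Ctrl the order was Dlgap1 (98.2), Dlg2 (59.3), Dlg1 (29.5), then Shank2 (24.3) and Dlg3 (23.5), Dlg4 (15.4) and Shank1 (15.2), and Shank3 (9.73) and Homer1 (9.58), where the members of each of these last 3 pairs overlapped.

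The tissues also used different transcripts of these genes. Of 82 transcripts tested, 15 differed in usage between Ctrl FC and Ctrl Cere, 10 with a higher share in Cere, where 3.47% of 44819 transcripts passed and 1.74% were higher. Shank2-205 held 45.1% ± 3.5 of Shank2 counts in FC and 2.21% ± 1.5 in Cere, Shank2-202 held 43.4% ± 3.5 and 74.9% ± 0.69, and Shank2-206 held 0.0347% ± 0.069 and 17.3% ± 0.74 (n = 4 each). Dlg2-203 held 0.799% ± 0.27 and 10.1% ± 1.2, and Dlgap1-201 held 6.4% ± 0.62 and 15.5% ± 1.1. Another 4 transcripts, singled out after their values were seen, were listed at 0 in a whole tissue: Dlg1-201 was at 0 in all 8 FC libraries and at 17.5 CPM ± 4.1 in Cere Ctrl, Dlg4-201 was at 0 in FC and at 8.26 ± 3.8 in Cere Ctrl, and Dlg3-204 was at 23.4 ± 13 in FC Ctrl and at 0 in Cere. The fourth, Dlg4-204, was at 0 in FC, at 4.01, 0.611, 0 and 0 CPM in Cere Ctrl, and at 13.7, 3.78 and 10.8 CPM in Cere Upf3b-KO, where neither its level (adjusted p = 0.237) nor its usage (adjusted p = 0.0792) passed between genotypes. Their spread between libraries was wide.

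Other genes of the excitatory postsynaptic density were taken from a list of 36. In FC 8 rose and 20 fell, none by more than 2-fold, with a median log2 difference of -0.09, where 28% of all genes rose and 25.3% fell. The clearest were the AMPA receptor subunit Gria1 (560 CPM ± 4.7 to 419 ± 2.8, log2 difference -0.49, adjusted p = 9.27e-18) and the NMDA receptor subunit Grin2b (-0.50, adjusted p = 6.22e-15) among those lower, and Baiap2 (0.29, adjusted p = 2.5e-10) and the deubiquitinase Cyld (0.32, adjusted p = 4.58e-10) among those higher. In Cere 11 rose, 5 of them by more than 2-fold, and 20 fell, 2 of them by more than 2-fold, with a median of -0.18, where 33.1% of all genes rose and 31.3% fell. Gria1 fell there by 1.30 on the log2 scale (950 CPM ± 10 to 401 ± 3.5, adjusted p = 4.31e-22) and Homer3, the Homer form of Purkinje cells, by 1.08 (323 CPM ± 5.9 to 158 ± 0.58, adjusted p = 4.4e-19). Grm5, low in the mature cerebellum, rose from 10.7 CPM ± 0.49 to 46.8 ± 2.6 (log2 difference 2.09, adjusted p = 1.56e-16), and Begain, which encodes a partner of PSD-95, from 10.9 ± 0.65 to 33.4 ± 2 (1.56, adjusted p = 6.34e-14). In that tissue the Purkinje, granule cell and brainstem marker sums given above moved with genotype as well.

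Of 6 inhibitory postsynaptic genes, 1 rose and 2 fell in FC and 2 rose and 4 fell in Cere, against shares over all genes of 28% and 25.3% in FC and 33.1% and 31.3% in Cere. Of the 3 polypyrimidine tract-binding genes, Ptbp1 rose in FC (19.8 CPM ± 0.59 to 25 ± 0.96, log2 difference 0.26, adjusted p = 0.000156) and Ptbp2 fell (107 ± 2.1 to 100 ± 1.3, -0.16, adjusted p = 7.09e-06), while in Cere all 3 fell, by 0.15 to 0.38 on the log2 scale.

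**Figure D4:**
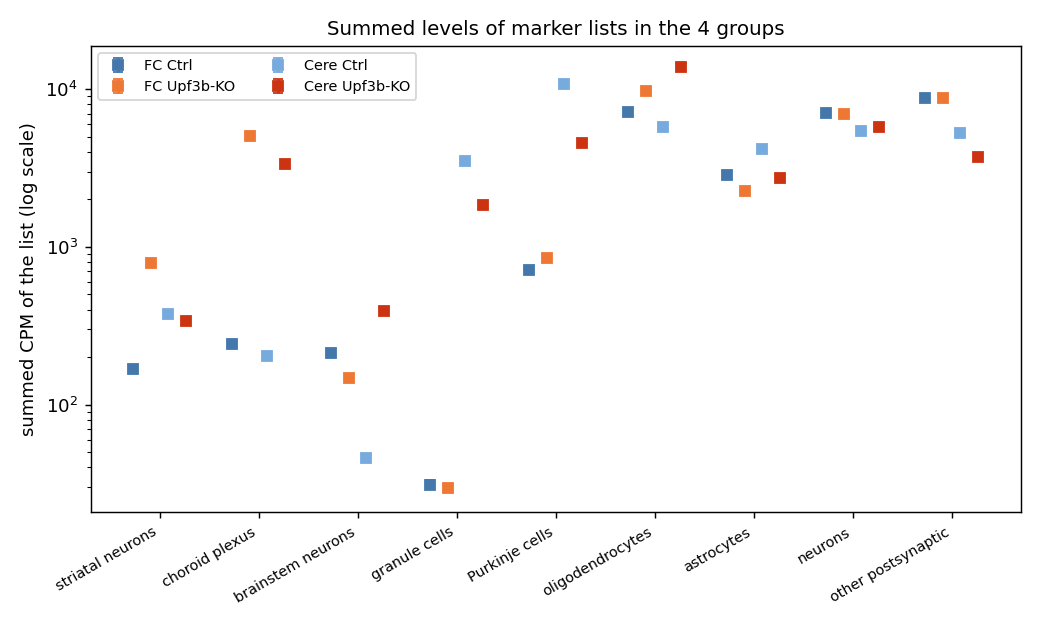
Summed CPM (log scale) of 8 cell type marker lists and of the 36 other postsynaptic genes in the 4 groups; squares are the midpoint of the range over libraries, and the bars, mostly hidden by the squares, give that range. Choroid plexus markers are higher in Upf3b-KO of both tissues, striatal markers in FC, brainstem markers in Cere, and granule and Purkinje cell markers are lower in Cere Upf3b-KO.

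Across the 15 libraries the genes whose log2(CPM + 1) followed that of Dlg4 most closely were Sema3e (Pearson r = 0.991), Sh3bgrl (0.99), Cpe, Ywhab and Tshz3 (0.988 each), out of 10322 genes whose mean reached 10 CPM. Among the members Dlg3 (0.94), Shank1 (0.93) and Homer1 (0.92) were the closest to Dlg4 and Shank2 (-0.21) the farthest. The libraries fall into 2 tissues and 2 genotypes, which all these genes share, so the values describe a common order of groups.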

How the data were processed

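RNA of 16 libraries was measured by RNA-seq. The authors aligned reads with STAR 2.5.2b to GRCm39 and estimated transcript abundance with RSEM, and the deposited values are expected counts per transcript, which need not be whole, in a matrix per tissue. Here they were rounded, matched to the GENCODE annotation of that build (1333 transcripts had no match), and summed per gene, or per gene into NMD-annotated and other transcripts. Loci, exons and sequences come from that annotation and genome. CPM used library totals, and per-kilobase levels divide each transcript by its annotated length. edgeR 4.0.16 quasi-likelihood tests (TMM, minimum count 10, minimum total 15, Benjamini-Hochberg over all features) compared genotypes within each tissue and, over 15 libraries, tissues and their interaction. Its diffSpliceDGE tested usage. SE is the log2 difference over the square root of F. Alternatives were DESeq2 1.42.0, limma 3.58.1, other scaling factors, filters and thresholds, a replicate block, a joint fit, the shallow library and each library left out; a fit on library totals was added after the data were seen. Scripts were tested on simulated data. Members, gene lists and marker lists were chosen with earlier results of these data known. Named transcripts are the highest in Ctrl of each tissue, NMD-annotated ones past the filter, those passing a level or usage test between genotypes with at least 5% of their gene, and the 3 with the smallest interaction p. No replicate pair agreed within counting noise, a check for duplicate libraries that cannot tell separate mice from repeat libraries of the same RNA, and all were kept as separate samples. With 27660078 counts or more per library, counting error was small for all but the lowest transcripts, and floors cover counting error only.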

Additional observations from a re-analysis of the deposited data

Results flagged for a closer look

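Among 48 groups of member levels and transcript shares examined, 3 held a library far from the others, where chance alone sets apart about 1 in 20 groups. The share of Shank2-206 was 0.139% in FC Ctrl replicate 3 and 0 in the other FC Ctrl libraries, where the rule flags any value above 0. Dlgap1 was at 592 CPM in FC Upf3b-KO replicate 1 and at 599 to 600 CPM in the others. The share of Shank2-202 was 33.2% in FC Upf3b-KO replicate 3 and 41 to 42.2% in the others.

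The effect of Upf3b-KO differed between Cere and FC, as tested by the interaction in the joint edgeR fit, for all 9 genes. In that fit, which had no term for the animals that the tissues share, 48% of 19831 genes passed. The interaction, the Cere effect minus the FC effect on the log2 scale, was -0.92 for Shank2, -1.17 for Shank3, -0.44 for Dlgap1, -0.5 for Dlg2, -0.37 for Dlg1, -0.46 for Homer1, -0.21 for Shank1, -0.17 for Dlg3 and 0.22 for Dlg4.

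The same interaction passed for 15 of 82 member transcripts tested, 14 of them described above, where 13.3% of 53206 transcripts passed. It was -1.34 for Homer1-204 and -0.54 for Homer1-203, -1.56 for Shank3-203 and -0.91 for Shank3-210, and -0.46 for Dlg2-204 and -1.59 for Dlg2-203. For Shank2-202 it was -0.93 and for Shank2-206 -6.22, a value that rests on FC Ctrl libraries at or near 0 and ran from -9.69 (without FC Ctrl replicate 3) to -5.78 when 1 library was left out. The Dlgap1 transcripts ranged from -0.56 for Dlgap1-220 over -0.49 for Dlgap1-201 and -0.43 for Dlgap1-214 to -0.32 for Dlgap1-211. Shank1-203 stood at -0.17. Dlg1-204 stood at -0.48, with an adjusted p of 0.05 that was lost in 10 of 15 fits without 1 library.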

How the results depend on the processing

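Of 1885 values that 100 single results took under the alternatives, 1698 kept their direction and side of the threshold, 146 lost the threshold, 11 gained it and 30 changed sign, the last only among results that had not passed.

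For FC the counts of members passing moved as follows. Genes went from 5 to 0 under the stricter rule (adjusted p under 0.01, over 2-fold), and to 8 on library totals. Transcripts went from 12 to 0 with that stricter rule, to 19 with DESeq2, to 6 with no filter on low counts, and to 7 to 11 without 1 library. Usage went from 2 to 4 with limma, to 1 with the stricter rule, a minimum count of 3 or 30, the replicate block or all 15 libraries, and to 1 to 3 without 1 library. The NMD class share went from 0 to 1 with a minimum count of 3 or all 15 libraries, and to 0 to 1 without 1 library.

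For Cere genes went from 8 to 2 with the stricter rule. Transcripts went from 23 to 7 with it, to 14 with the replicate block and to 12 with the shallow library. Usage went from 2 to 0 with the stricter rule, to 5 with limma, to 1 with a minimum count of 3 or 30 or the shallow library, and to 0 to 2 without 1 library. Between Ctrl tissues usage went from 15 to 31 with limma, and the class share from 1 to 0 with a minimum count of 30, the replicate block or the Ctrl libraries only. Interaction transcripts went from 15 to 9 with the shallow library.

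Signs turned for differences near 0. Dlg1 in FC was 0.00 with DESeq2, its median-of-ratios factors and all 15 libraries, -0.01 with no filter, and -0.01 to 0.01 without 1 library. Dlg3 in FC turned to 0.03 on library totals, and passed with DESeq2, its factors, no filter, the block and all 15 libraries. Without 1 library it ran from -0.07 to -0.03, and it passed without Ctrl replicate 3 or 4. Dlg4 in Cere was 0.00 with all 15 libraries and -0.01 to 0.03 without 1 library. The Dlg4 class share in Cere was 0.65 with limma, 0.09 with the replicate block and -1.05 to 0.48 without 1 library. That of Dlg1 was -0.37 to 0.07 in Cere and -0.14 to 0.04 between Ctrl tissues without 1 library. Dlg1-209 usage was -0.36 to 0.07 in Cere and, between Ctrl tissues, 0.16 with limma and -0.14 to 0.03 without 1 library. The causes were not tested.

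Same-numbered libraries did not deviate together (correlations -0.11 to 0.12). The tissues share animals, but whether equal numbers mark the same mouse is not given, so the replicate block (9 genes and 12 transcripts passing the interaction) may not match the mice. Dlg4-205, Dlg1-207 and Shank3-208 were low, at most 1.36, 0.805 and 0.635 CPM, against a floor of 0.0851 to 0.108 CPM. In simulated data a usage change of 1 on the log2 scale was estimated at 0.77 to 0.81.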
